A study of Mus musculus with 6 samples.

Results

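AP-1 and immediate early genes were examined in the RNA-seq data of molar dental epithelium as a set of 10 genes out of the 55487 in the deposited table. The set held the Fos family (*Fos*, *Fosb*, *Fosl1*, *Fosl2*), the Jun family (*Jun*, *Junb*, *Jund*) and *Atf3*, *Egr1* and *Ier2*. It was chosen by gene name for the spread of its TPM values over these same 6 libraries. The levels of the 10 genes, their spread and their differences between groups are therefore given as a description, without a test. All samples came from mice at postnatal day 2.5 (PN2.5) that carried floxed *Wnt10a* alleles. The 3 control libraries were from Wnt10aflox/flox mice. The 3 cKO libraries were from K14-Cre;Wnt10aflox/flox mice, in which the keratin 14 promoter drives Cre recombinase in epithelial cells, so that cells outside the K14 lineage keep *Wnt10a*. The tissue was the dental epithelium of the first mandibular molar (M1). Each library was a pool of 5 molars by the methods of the study and of 4 molars by the series' design text. The labels call the samples of a group biological replicates. Replicate numbers are given as in the sample titles, and they differ in part from those in the names of the deposited columns.

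AP-1 is a dimeric transcription factor of the basic leucine zipper class. Fos proteins do not form stable dimers with each other and bind DNA as partners of Jun proteins, whereas Jun proteins can also pair among themselves. *Fos*, *Fosb*, *Jun*, *Junb*, *Atf3*, *Egr1* and *Ier2* are immediate early genes: growth factors, serum, mechanical stress and injury switch them on within minutes, without new protein synthesis, and their mRNAs decay quickly. *Jund* and *Fosl2* are in general transcribed more steadily. In epithelia, AP-1 takes part in proliferation, differentiation and wound repair.

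The table gave TPM, in which the reads of a gene are scaled by its transcript length and by the library total. TPM keep no sequencing depth, so depth is unknown here and counting errors were not computed. The libraries summed to 983952 to 993946 TPM, with 20185 to 23203 genes above 0. *Wnt10a*, the targeted gene, was at 56.0, 51.2 and 57.9 TPM in the controls and at 22.7, 21.8 and 32.2 TPM in cKO, with no overlap (p = 0.1 in an exact permutation test, two-sided, which is the smallest p possible with 3 against 3). The epithelial keratin gene *Krt14* was at 2190 to 2773 TPM. *Col1a1* and *Dspp*, which mark mesenchyme and odontoblasts, were at 1795 to 3127 TPM and 352 to 1302 TPM, so the libraries also held RNA of cells other than epithelium. In such bulk samples, fewer cells of a type and less RNA per cell cannot be told apart.

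The promoters of 7 of the 10 genes were matched in RefSeq (GRCm38.p6), those of *Fosl1*, *Egr1* and *Ier2* were not. The 250 bases before the start site are shown for *Fos*, *Fosb* and *Junb*, from the genes with the widest spread and from the Jun family, because each holds the core of the cAMP response element, TGACG, through which CREB and ATF factors can act. Each is read 5′ to 3′ on the strand of its gene, and capitals mark TGACG.

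Fos promoter, chr12:85473640-85473889, plus strand: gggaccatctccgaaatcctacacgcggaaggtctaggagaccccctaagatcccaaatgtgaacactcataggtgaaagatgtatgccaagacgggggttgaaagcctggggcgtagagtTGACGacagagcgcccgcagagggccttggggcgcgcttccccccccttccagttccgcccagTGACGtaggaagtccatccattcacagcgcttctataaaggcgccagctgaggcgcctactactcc
Fosb promoter, chr7:19310046-19310295, minus strand: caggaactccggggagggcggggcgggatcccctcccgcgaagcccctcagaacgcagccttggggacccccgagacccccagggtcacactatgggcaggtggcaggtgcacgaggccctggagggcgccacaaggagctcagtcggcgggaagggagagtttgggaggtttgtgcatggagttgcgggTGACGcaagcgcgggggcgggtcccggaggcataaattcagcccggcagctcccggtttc
Junb promoter, chr8:84978749-84978998, minus strand: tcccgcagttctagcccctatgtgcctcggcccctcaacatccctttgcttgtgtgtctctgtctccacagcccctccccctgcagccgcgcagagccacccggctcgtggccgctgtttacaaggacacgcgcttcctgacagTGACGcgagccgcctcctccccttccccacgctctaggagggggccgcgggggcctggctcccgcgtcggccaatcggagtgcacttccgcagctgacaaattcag

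TGACG, searched on both strands, was present in 4 of the 7 promoters, against 17.8% of the 32851 promoters in the RefSeq table. It began 129 and 66 bases before the start of *Fos*, 60 before *Fosb*, 106 before *Junb* and 7 before *Atf3*. The full palindrome TGACGTCA, which contains TGACG, was in 0 of 7 against 1.55% of all promoters, and the AP-1 site TGANTCA was in 0 of 7 against 6.75%. The TATA box TATAAA was in the *Fos* promoter alone among the 7, 33 bases before the start, against 7.59% of all. The EGR site GCGNGGGCG was in *Fosb* and *Fosl2*, against 4.70% of all, and the CArG box was in 0 of 7 against 1.47%. A match describes letters in this window and does not show that a factor was bound. The absence of a match holds only for this window and for the exact letters searched, and sites farther upstream were not searched.

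AU-rich elements in the 3′ untranslated region (UTR), built on the pentamer ATTTA, are known to speed the decay of immediate early mRNAs. ATTTA was found in the annotated 3′ UTR of 9 of the 10 genes and in none of *Ier2*. The pentamer is common, with a median of 1.28 per kb over all 3′ UTRs. The share of all 3′ UTRs that hold it was not computed, so nothing is read from this count. The longer form TATTTAT, which holds ATTTA, was found in 7 of the 10, against 28.0% of the 20660 mouse 3′ UTRs of at least 50 bases searched on the transcript strand. The density of ATTTA was 4.91 per kb in *Fos*, 4.12 in *Junb* and 3.24 in *Jun*, against a median of 1.28 per kb over all 3′ UTRs. Of 3′ UTRs between 0.8 and 1.25 times the same length, 91.2% had a lower density than *Fos*, 84.7% than *Junb* and 79.4% than *Jun*. *Fosb* stood low at 0.434 per kb, with 11.3% of 3′ UTRs of like length below it. A stretch of 30 bases with these pentamers is shown for the 3 genes with the highest density, with ATTTA in capitals and positions counted from the first base of the 3′ UTR.

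Fos 3′ UTR, bases 643 to 672: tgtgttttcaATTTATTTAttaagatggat
Jun 3′ UTR, bases 1031 to 1060: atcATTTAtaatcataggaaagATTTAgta
Junb 3′ UTR, bases 240 to 269: atatatttgtgtATTTAacagggaggggag

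*Fos* and *Fosb* had the widest ranges of the set, both within the control group. *Fos*, the prototype immediate early gene (chromosome 12, 85473890 to 85477273, plus strand, 4 exons), was at 42.1, 248 and 12.7 TPM in control replicates 1, 2 and 3 and at 187, 182 and 140 TPM in the cKO replicates. Control replicate 2 was above every cKO library and the other two control libraries were below every cKO library, so the groups overlapped. The control mean was 101 ± 128 TPM and the cKO mean 170 ± 25.8 TPM (SD, n = 3 each). The highest control library was 19.5-fold above the lowest, against 1.33-fold among the cKO libraries. On log2(TPM + 1) the difference of cKO from control was 1.68 with a standard error of 0.92.

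*Fosb*, whose product is the closest relative of c-Fos (chromosome 7, minus strand, 4 exons), was at 1.51, 19.9 and 0.45 TPM in the controls and at 11.2, 7.84 and 4.13 TPM in cKO. Its order among the control libraries was that of *Fos*, and its control range of 44.3-fold was the widest of the 9 genes above the minimum level. The cKO range was 2.72-fold. The group means were nearly equal, at 7.29 ± 10.9 and 7.74 ± 3.56 TPM (SD, n = 3 each). On the log2 scale the difference was 0.96 (standard error 0.93), and control replicate 2 held most of the summed control TPM.

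*Fosl1*, which encodes Fra-1 (chromosome 19, plus strand), was listed at 0 in 5 libraries and at 0.02 TPM in cKO replicate 1. It was the only 1 of the 10 genes below the minimum mean of 1 TPM, and no difference was computed for it. *Fosl2*, which encodes Fra-2 (chromosome 5, 32135801 to 32157842, plus strand, 4 exons), was at 11.2, 14.7 and 8.36 TPM in the controls and at 6.96, 10.5 and 9.60 TPM in cKO. The groups overlapped, and *Fosl2* was the only gene of the 9 with a fitted log2 difference below 0, at -0.30 (standard error 0.26). After correcting for the length and GC content of transcripts, this difference was -0.0030.

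**Figure D1:**
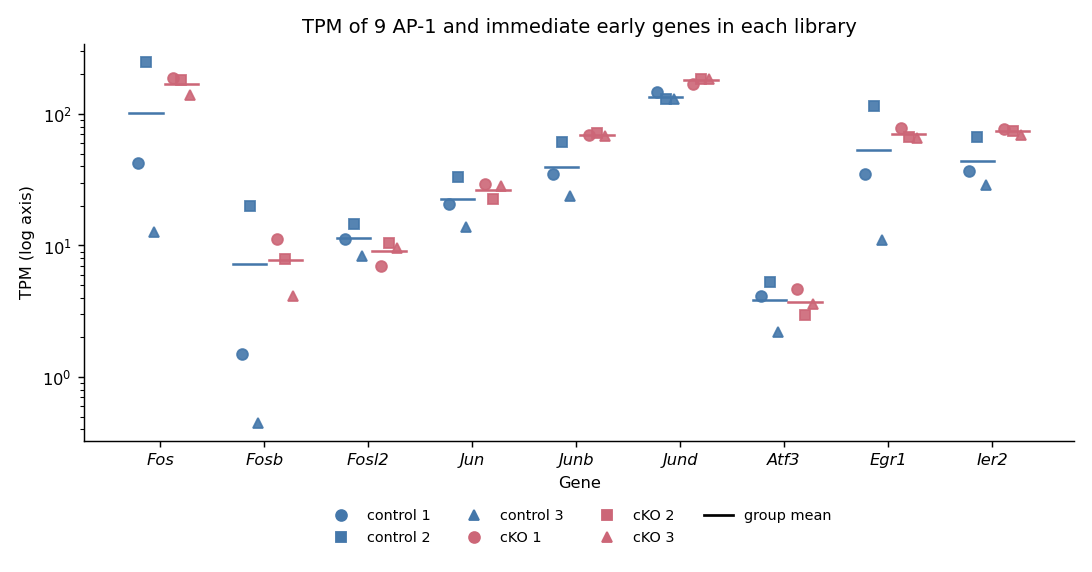
TPM (log axis) of the 9 genes whose mean reached 1 TPM. Points are single libraries, with the replicate number given by the marker, and horizontal lines are group means. The control points of *Fos*, from 12.7 to 248 TPM, enclose all 3 cKO points, while *Jund* and *Junb* have every cKO point above every control point.

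The Jun family genes had narrower ranges in both groups than *Fos* and *Fosb*. *Jun*, which encodes c-Jun and has a single exon (chromosome 4, 95049034 to 95052222, minus strand), was at 20.6, 33.1 and 13.9 TPM in the controls and at 29.1, 22.7 and 28.1 TPM in cKO. The order of the control libraries was again 2, 1, 3 from high to low, and the groups overlapped. The means were 22.5 ± 9.71 and 26.6 ± 3.43 TPM (SD, n = 3 each), a log2 difference of 0.31 (standard error 0.30).

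*Junb* (chromosome 8, 84974484 to 84978718, minus strand) encodes a subunit that can replace or oppose c-Jun, depending on its partner. Its longest transcript has 1 exon of 1809 bases, shorter than the span of the gene. *Junb* was at 34.7, 60.9 and 23.7 TPM in the controls and at 68.9, 72.1 and 67.9 TPM in cKO. All cKO libraries lay above all control libraries and close together, with a range of 1.06-fold against 2.56-fold among controls. The cKO mean was 1.75-fold the control mean (69.6 ± 2.21 against 39.8 ± 19.1 TPM, SD, n = 3 each), and the log2 difference was 0.90 (standard error 0.32).

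*Jund* (chromosome 8, 70698949 to 70700616, plus strand, 1 exon) was the most abundant of the 10 genes by group mean in both groups. It was at 146, 130 and 130 TPM in the controls and at 170, 184 and 185 TPM in cKO. The groups did not overlap, and each was narrow, unlike *Fos*. The cKO mean was 1.33-fold the control mean (180 ± 8.38 against 135 ± 9.47 TPM, SD, n = 3 each), with a log2 difference of 0.41 (standard error 0.13). *Jund* was also the only member of the 9 whose level in control replicate 2 was below that in control replicate 1.

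Several of these loci overlap other genes. The span of *Junb* overlaps *Prdx2* (370 to 656 TPM), that of *Jund* overlaps *Gm11175* (12.4 to 29.95 TPM) and that of *Jun* overlaps *Junos* (0.31 to 1.97 TPM). Whether the counting used strand is not given in the sources used here, so reads of these pairs cannot be told apart in their shared stretches. These overlaps are of whole gene spans, and whether exons overlap was not examined.

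The remaining genes belong to other classes of the immediate early response. *Egr1*, a zinc finger transcription factor induced by growth factor signalling through ERK, was at 34.9, 115 and 11.1 TPM in the controls and at 78.6, 66.2 and 65.9 TPM in cKO. Its pattern was that of *Fos*: control replicate 2 was the highest of all 6, the other two controls were the lowest, and the groups overlapped. The control range was 10.4-fold and the cKO range 1.19-fold. The means were 53.5 ± 54.3 and 70.3 ± 7.25 TPM (SD, n = 3 each), and the log2 difference was 0.95 (standard error 0.72).

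*Ier2*, a short single-exon gene of the serum response (chromosome 8, 84661331 to 84662852, minus strand), was at 37.0, 66.7 and 28.6 TPM in the controls and at 77.1, 74.2 and 69.3 TPM in cKO. As for *Junb*, the groups did not overlap and the cKO libraries lay close together. The cKO mean was 1.67-fold the control mean (73.5 ± 3.96 against 44.1 ± 20.04 TPM, SD, n = 3 each), with a log2 difference of 0.81 (standard error 0.30). *Atf3*, a stress-induced partner of Jun proteins (chromosome 1, 191170296 to 191218039, minus strand, 4 exons), was low, at 4.10, 5.28 and 2.19 TPM in the controls and at 4.64, 2.99 and 3.60 TPM in cKO. The groups overlapped and the log2 difference was 0.0063 (standard error 0.31), the smallest of the 9.

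By group mean, the order of levels from high to low in the cKO group was *Jund*, *Fos*, *Ier2*, *Egr1*, *Junb*, *Jun*, *Fosl2*, *Fosb*, *Atf3* and *Fosl1*. The ranges of *Jund* and *Fos* overlapped, as did those of *Ier2*, *Egr1* and *Junb*, of *Fosl2* and *Fosb*, and of *Fosb* and *Atf3*. In the control group *Egr1* came before *Ier2* and *Junb*, and every neighbouring pair from *Jund* to *Atf3* had overlapping ranges.

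Of the 9 genes, 8 had a higher and 1 a lower fitted level in cKO, with a median log2 difference of 0.81, against -0.07 over all 13719 genes tested. The groups did not overlap for 3 of the 9 (*Junb*, *Jund* and *Ier2*), all higher in cKO, where 3.51% of all genes tested were higher without overlap and 6.13% were lower. Nothing is read from these shares, because the same 6 libraries chose the genes.

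Single libraries set the size of these differences. Without control replicate 3 the log2 difference was 0.71 for *Fos*, 0.18 for *Fosb*, 0.14 for *Egr1*, 0.020 for *Jun*, 0.59 for *Junb* and -0.49 for *Fosl2*. Without control replicate 2 it was 2.80 for *Fos*, 2.11 for *Fosb*, 1.77 for *Egr1*, 0.61 for *Jun*, 1.25 for *Junb* and -0.11 for *Fosl2*. *Fosb* also moved to 0.58 without control replicate 1, and *Fosl2* to -0.14 without cKO replicate 1. *Atf3* was below 0 without control replicate 3 (-0.27) and without cKO replicate 1 (-0.13). *Jund* stayed between 0.38 and 0.46 and *Ier2* between 0.55 and 1.15 over the 6 fits that each left out a library.

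**Figure D2:**
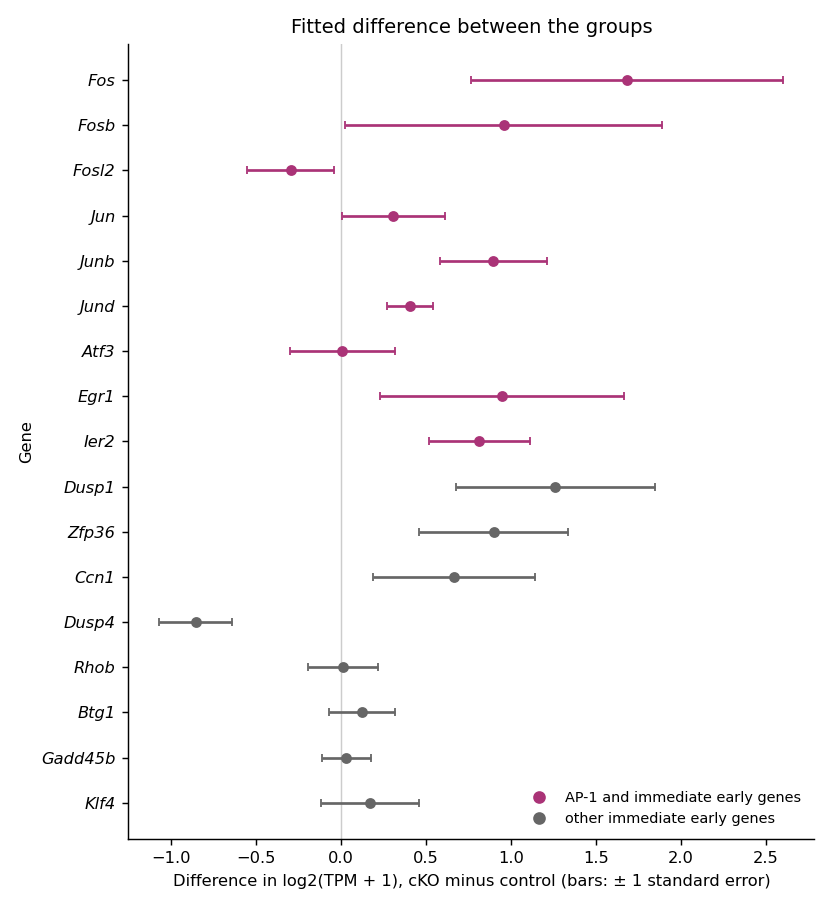
Difference in log2(TPM + 1), cKO minus control, for the 9 genes and for 8 other immediate early genes; bars are 1 standard error to each side from the limma fit. *Fos* has the largest difference, 1.68, with a bar of 0.92, and *Jund* the narrowest bar, 0.13.

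The library pattern was shared by most of the set. After the mean of each gene was subtracted on log2(TPM + 1), the mean of the 9 genes was -0.44, 0.67 and -1.18 in the controls and 0.42, 0.32 and 0.21 in cKO. Control replicate 3 was thus low, control replicate 2 high, and the cKO libraries were similar to each other. The median over all genes tested was 0.07, 0.19 and -0.16 in the controls and -0.10, 0.14 and -0.12 in cKO, a shift of the same sign in control replicates 2 and 3 but of smaller size. With quantile normalization the mean of the 9 genes was -0.51, 0.53 and -0.996 in the controls and 0.49, 0.18 and 0.31 in cKO. After correcting for transcript length and GC content it was -0.50, 0.61 and -1.18 in the controls and 0.60, 0.26 and 0.21 in cKO.

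Control replicate 3 was the lowest of the 6 libraries for 8 of the 9 genes, the exception being *Fosl2*. It was the lowest control library for 9 of 9, where 61.2% of all genes tested had their lowest control value in that library. Control replicate 2 was the highest of the 6 for 6 of the 9 (*Fos*, *Fosb*, *Fosl2*, *Jun*, *Atf3* and *Egr1*) and the highest control library for 8 of 9, against 54.8% of all genes. Among the cKO libraries, replicate 1 was the highest for 6 of the 9, against 9.66% of all genes. These counts share their 6 libraries with the choice of the genes.

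**Figure D3:**
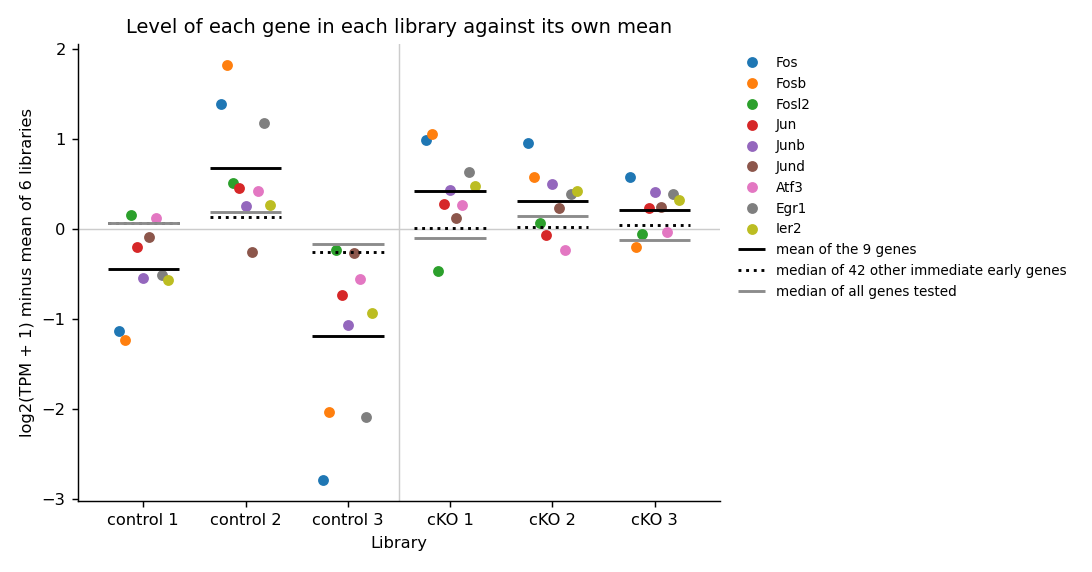
log2(TPM + 1) of each gene in each library minus its mean over the 6 libraries. Coloured points are the 9 genes; horizontal lines are their mean (black), the median of 42 other immediate early genes (dotted) and the median of all genes tested (grey). The mean of the 9 genes runs from -1.18 in control replicate 3 to 0.67 in control replicate 2, and lies between 0.21 and 0.42 in cKO.

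The spread of the 9 genes was unequal between the groups. The SD of log2(TPM + 1) was larger in the control than in the cKO group for 9 of the 9 genes. Of all genes tested, 58.8% had the larger SD in the control group. Nothing is read from this count, because the genes were chosen for their spread over the same 6 libraries. The SD was 2.11 in control and 0.23 in cKO for *Fos*, 2.03 and 0.63 for *Fosb*, and 0.67 and 0.045 for *Junb*. Ranked by the SD over all 6 libraries, *Fos* lay at the 98.3 percentile of all genes tested, *Fosb* at 98.0 and *Egr1* at 97.0. *Junb* followed at 88.5, *Ier2* at 85.9, *Jun* at 71.2, *Atf3* at 59.3, *Fosl2* at 55.6 and *Jund* at 30.4. Over all genes tested, the set chosen for its spread therefore held 3 genes above the 90th percentile. In that ranking the spread of 1 gene, *Jund*, was below that of most genes. Ranked only among genes of like level, *Jund* lay at the 53.9 percentile, *Junb* at 95.4 and *Ier2* at 94.2. There *Fos* lay at 99.8, *Egr1* at 99.6, *Fosb* at 98.2, *Jun* at 76.4, *Atf3* at 48.7 and *Fosl2* at 48.1.

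**Figure D4:**
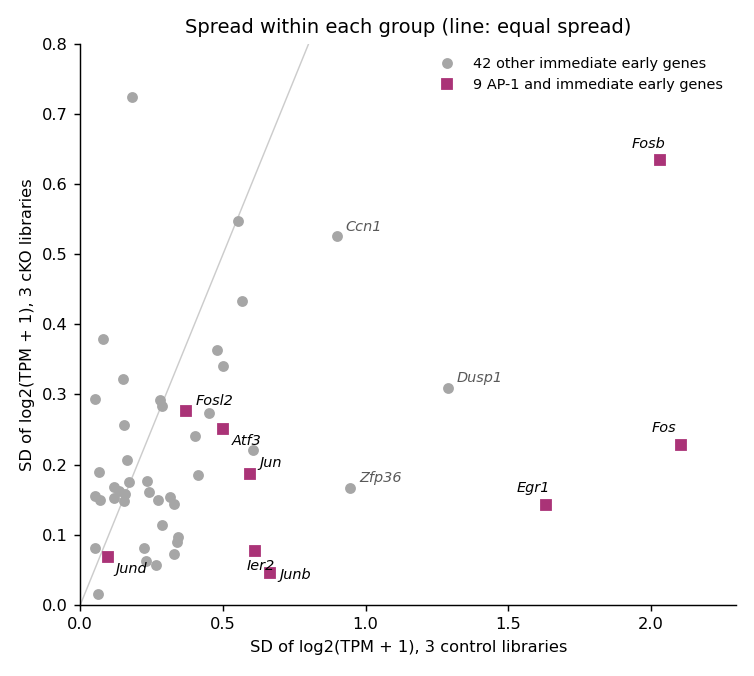
SD of log2(TPM + 1) among the 3 control libraries (horizontal) against the 3 cKO libraries (vertical), with a line of equal spread; the axes have different scales. Squares are the 9 genes and grey circles 42 other immediate early genes. All 9 squares lie below the line, and *Fos* lies far to the right at 2.11 in control and 0.23 in cKO.

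Because Fos proteins need a Jun partner, the summed mRNA of the families was compared. The Fos family summed to 54.9, 282 and 21.5 TPM in the controls and to 205, 201 and 154 TPM in cKO. The Jun family summed to 202, 224 and 167 TPM in the controls and to 268, 278 and 281 TPM in cKO. The groups overlapped for the Fos sum and did not for the Jun sum. The ratio of Fos to Jun family mRNA was 0.272, 1.26 and 0.129 in the controls and 0.766, 0.721 and 0.548 in cKO, so it exceeded 1 in control replicate 2 alone.

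The makeup of the families moved with the library as well. *Fos* made up 76.8%, 87.8% and 59.1% of Fos family mRNA in the controls and 91.1%, 90.9% and 91.1% in cKO. *Fosl2* made up 20.5%, 5.19% and 38.8% in the controls and 3.39%, 5.21% and 6.23% in cKO. Its share was largest where *Fos* was lowest, which follows from *Fos* making up most of the sum. In that library, control replicate 3, *Fosl2* itself was at 8.36 TPM, its lowest control level. *Jund* was the largest part of Jun family mRNA in every library, at 72.6%, 58.1% and 77.5% in the controls and 63.4%, 66.0% and 65.9% in cKO. *Junb* took 17.2%, 27.2% and 14.2% in the controls and 25.7%, 25.9% and 24.1% in cKO. Protein was not measured here.

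**Figure D5:**
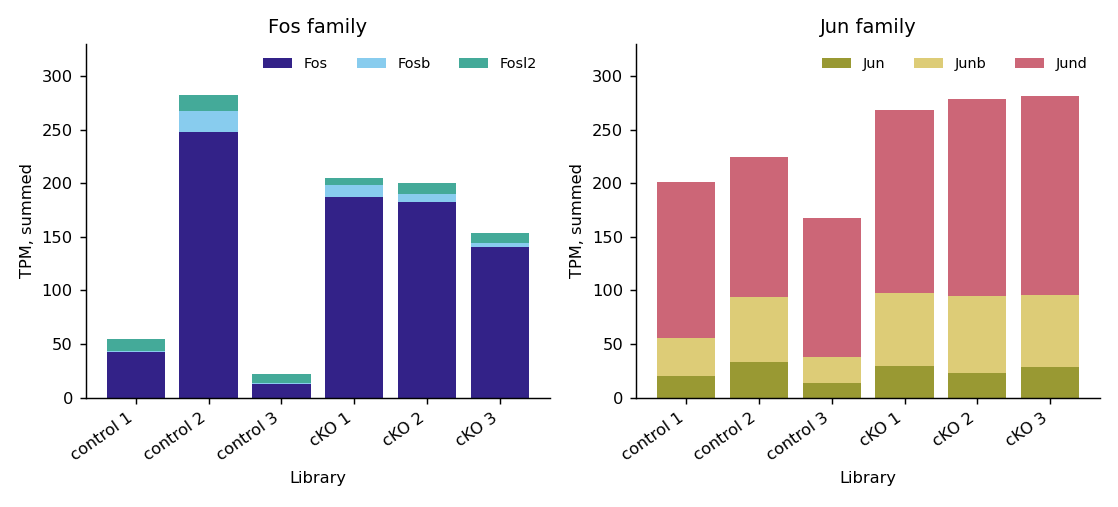
TPM of the Fos family (left) and the Jun family (right) in each library, stacked by gene; *Fosl1*, at 0.02 TPM or listed at 0, is not drawn. Fos family bars run from 21.5 TPM in control replicate 3 to 282 TPM in control replicate 2, whereas Jun family bars lie between 167 and 281 TPM.

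Other immediate early genes were taken from a list of 48, of which 42 were tested. Of these, 28 had a higher and 14 a lower fitted level in cKO, with a median log2 difference of 0.07. The criteria of the study were a P-value under 0.05 and group means more than 20% of the control mean apart. Here they were applied with the unadjusted limma p, so the calls need not be those of the study. Under these criteria 0 of the 42 were higher and 1 was lower, where 1.55% and 2.47% of all genes were called in those directions. At an adjusted p below 0.05 limma called 0 of the 42 and 0.0146% of all genes, and 1 of the 42 had an unadjusted p below 0.05. The gene that was lower was *Dusp4*, a nuclear phosphatase of MAP kinases. It was at 3.57, 3.52 and 3.22 TPM in the controls and at 1.48, 1.44 and 1.43 TPM in cKO. All cKO libraries lay below all control libraries, and the log2 difference was -0.86 (standard error 0.21, limma unadjusted p = 0.0049, adjusted p = 1.00).

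*Dusp1*, a phosphatase of the same family, had a spread like that of *Egr1*, at 22.2, 70.4 and 11.3 TPM in the controls and 81.0, 62.3 and 52.6 TPM in cKO. *Zfp36*, whose product binds AU-rich elements and speeds mRNA decay, was at 11.8, 35.6 and 9.95 TPM in the controls and 33.3, 33.3 and 27.1 TPM in cKO. Control replicate 2 lay among the cKO values for *Dusp1* and above them for *Zfp36*, and the other two controls lay below them for both. The log2 difference of *Dusp1* was 1.26 (standard error 0.59, limma unadjusted p = 0.0671) and that of *Zfp36* was 0.90 (standard error 0.44, limma unadjusted p = 0.0786), and neither passed in this fit. Without control replicate 2, 4 genes of the list met the criteria, with *Dusp1*, *Zfp36* and *Ccn1* higher and *Dusp4* lower in cKO. With quantile normalization *Dusp1*, *Zfp36* and *Socs3* were also called higher, and with median-ratio scaling *Dusp1* and *Zfp36*. With genes of at least 5 TPM alone, *Dusp4* left the test and the list had 0 calls.

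The most abundant genes of the list differed little between the group means. *Rhob*, which encodes a small GTPase, was at 371, 362 and 403 TPM in the controls and 320, 334 and 516 TPM in cKO, a log2 difference of 0.010 (standard error 0.21). The log2 differences of *Btg1*, *Gadd45b* and *Klf4*, the next in level, were 0.12, 0.030 and 0.17, each below its standard error of 0.20, 0.15 and 0.29. The median of the list was 0.07, 0.14 and -0.25 in the controls and 0.01, 0.03 and 0.04 in cKO on the centred log2 scale. Control replicate 3 was thus the lowest here too, as it was for the median of all genes tested, at -0.16. Control replicate 3 held the lowest control value for 32 of the 42, or 76.2%, against 61.2% of all genes tested. The SD was larger in control than in cKO for 26 of the 42, or 61.9%, near the 58.8% of all genes. The median percentile of spread was 28.6. The 85.9 of the 9 genes cannot be set against it, because those genes were chosen for their spread.

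The 10 genes outside the set whose centred profile was closest to the mean of the 9, by root mean square difference over 6 libraries, were *Zfp36* (0.212), *Nme5* (0.212), *Smim22* (0.212), *Zfp963* (0.226), *Fanca* (0.235), *Ccn1* (0.270), *Gp1bb* (0.271), *Setd6* (0.274), *Ccnc* (0.282) and *Iqcb1* (0.283). *Zfp36* and *Ccn1*, a secreted matrix protein gene, are in the list of other immediate early genes. *Ccn1* was at 6.59, 14.2 and 3.38 TPM in the controls and 12.7, 16.3 and 7.46 TPM in cKO. *Nme5*, *Smim22*, *Zfp963* and *Gp1bb* were each below 4 TPM in every library. *Junb* and *Ier2* were the members closest to the mean of the set, at 0.212 each, and *Fos* was the farthest at 0.859.

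The 3′ UTR of *Zfp36* held 3 ATTTA pentamers (3.88 per kb), that of *Dusp1* 4 (5.797 per kb) and that of *Ccn1* 5 (7.25 per kb). These densities were above the 3.24 per kb of *Jun*. Of 3′ UTRs of like length, 84.9%, 93.9% and 97.0% had a lower density than *Zfp36*, *Dusp1* and *Ccn1*. These genes were picked for their likeness to the set, and densities of the rest of the list are not given. A link between ATTTA and the library pattern was not tested. *Ier2*, with a profile close to that of *Junb*, had no ATTTA.

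The dimer partners of AP-1 outside the Fos and Jun families gave no call. Of 10 listed, 9 were tested, with 6 higher and 3 lower in cKO and 0 under the criteria (4.02% of all genes in either direction). The groups did not overlap for 1 of the 9, higher in cKO, against 3.51% of all genes. *Atf4*, the effector of the integrated stress response, was at 108, 126 and 101 TPM in the controls and 114, 117 and 107 TPM in cKO, a log2 difference of 0.02 (standard error 0.15). The log2 difference was -0.38 (standard error 0.19) for *Maf* and 0.15 (standard error 0.37) for *Atf2*.

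The kinases and factors known to act upstream of immediate early promoters were all tested, 21 of 21, with 1 higher, 20 lower and 0 under the criteria, where 8266 of the 13719 genes tested were lower. The median log2 difference of the list was -0.16, against -0.07 over all genes. The groups did not overlap for 3 of the 21, all lower in cKO, against 6.13% of all genes. *Srf*, the factor that binds the CArG box, was at 19.1, 18.8 and 17.6 TPM in the controls and 12.7, 17.3 and 17.6 TPM in cKO, and the nearest values of the groups were 17.62 and 17.60 TPM. Its coactivator gene *Mrtfa* was at 13.8, 21.0 and 12.6 TPM in the controls and 9.04, 9.71 and 12.2 TPM in cKO, also without overlap (log2 difference -0.55, standard error 0.24, limma unadjusted p = 0.0560). *Mrtfb*, its relative, was at 7.85, 9.66 and 6.95 TPM in the controls and at 4.19, 6.58 and 6.12 TPM in cKO, without overlap as well. *Elk4*, an ETS partner of SRF, was the gene with a higher level, by a log2 difference of 0.39 (standard error 0.23). The log2 differences of the kinase genes *Map2k2* and *Mapk3* were -0.02 and -0.12, each smaller in size than its standard error of 0.20.

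Heat shock genes were examined as another rapidly induced class. Of 11 tested, 2 were lower and 0 higher under the criteria, against 2.47% and 1.55% of all genes. *Hspa1b*, an inducible HSP70 gene, was at 151, 65.8 and 77.5 TPM in the controls and 22.3, 20.1 and 31.7 TPM in cKO (log2 difference -1.88, standard error 0.33, limma unadjusted p = 0.000709, adjusted p = 0.748). *Hspa1a*, its near-identical copy, between which reads may be split, was at 56.9, 22.1 and 37.7 TPM in the controls and 9.58, 7.79 and 15.7 TPM in cKO. Both were lower in every cKO library than in any control library, and control replicate 2, the library with the highest *Fos*, held the lowest control value of each. The most abundant chaperone genes of the list, *Hspa8*, *Hspb1*, *Hspe1* and *Dnaja1*, had log2 differences of 0.04, 0.02, 0.24 and 0.08, and none passed the test. *Hspe1* was at 163, 162 and 170 TPM in the controls and 203, 209 and 176 TPM in cKO, without overlap. Of the 11 genes, 1 was higher and 2 were lower without overlap, against 3.51% and 6.13% of all genes.

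Markers of cell types were summed in each library beside these values. The 7 epithelial markers summed to 6013 to 8748 TPM in control and 5783 to 8081 TPM in cKO, and control replicate 2, high in *Fos*, had the lowest and control replicate 3 the highest control sum. The 9 mesenchyme and odontoblast markers summed to 6718, 4305 and 3337 TPM in the controls and 4343 to 4886 TPM in cKO, the lowest being control replicate 3. The 3 ameloblast markers summed to 199620 to 238900 TPM in control. In cKO they summed to 190810, 95715 and 208090 TPM, so the low value was that of cKO replicate 2 alone. The 5 erythroid markers summed to 1325 to 1978 TPM in control and 1160 to 1282 TPM in cKO, with 1 of 5 lower under the criteria, and the 5 endothelial markers to 60.2 to 95.5 and 47.7 to 67.3 TPM, with 2 of 5 lower, where 2.47% of all genes were lower under the criteria. The 7 leukocyte markers summed to at most 71.8 TPM in control and 82.2 TPM in cKO, with the defining gene *Ptprc* at 0.50 TPM or below. The 5 skeletal muscle markers summed to at most 6.34 TPM in any library. The part of the tissue makeup, and of the handling of the tissue, in the levels of the AP-1 and immediate early genes was not tested.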

How the data were processed

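RNA-seq was made on 6 libraries, 3 control and 3 cKO, grouped by the sample labels. Reads were trimmed by the authors (SeqPrep, Sickle) and aligned with HISAT2. The methods name RSEM, and the submitters' processing notes name StringTie. The deposited values are TPM per gene and library. The methods name FPKM, but each library sums to nearly the same total. The build is not given in the sources used here. GENCODE for GRCm38 held 99.4% of the identifiers and gave positions, lengths and 3′ UTRs. Exon counts are those of the longest transcript of a gene. TPM correct for transcript length, and a gain in 1 abundant gene lowers all others. *Amelx* and *Ambn* took 9.52% of cKO replicate 2 and 19.1% to 23.9% of the other libraries.

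The deposited TPM were taken as log2(TPM + 1). The 13719 genes whose mean reached 1 TPM were fitted with limma 3.58.1 (R 4.3.3; lmFit, eBayes with a trend, no block), with Benjamini-Hochberg adjustment over all genes. This scale understates changes of low genes. The p-values measure the spread between these pools. Single values were compared by exact two-sided permutation. Tables and figures used Python 3.11.15, pandas 2.3.3 and matplotlib 3.10.9. The fit was tested on simulated data.

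The members and gene lists were chosen with earlier results of these data known. The genes named were all members, *Wnt10a*, in each list those with an unadjusted p below 0.05 (at most 6) and the 4 with the highest mean TPM, and the 10 genes with the nearest profile; some genes that this rule names are not reported here. *Dusp1*, *Srf*, *Mrtfa*, *Mrtfb*, *Socs3*, *Trib1* and the overlapping genes were named after their values were seen. Alternatives were another pseudocount, other filters and scalings, a correction for length and GC content, the replicate block and leaving out each library. Promoters came from the RefSeq table of GRCm38.p6.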

Additional observations from a re-analysis of the deposited data

How the results depend on the processing

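At an adjusted p below 0.05, 2 genes were called in the fit as reported. A pseudocount of 0.1 gave 4, all unfiltered genes gave 1, and the count was 4 under quantile normalization, 4 under median-ratio scaling, and 2 to 9 when a library was left out. The number meeting the criteria of the study, applied with the limma p used here, was 552, of which 38.6% were higher in cKO. It was 940 with no filter on low values, 902 (18.2% higher) after rescaling without *Amelx* and *Ambn*, and between 204, without cKO replicate 1, and 1159, without control replicate 3. It was 237 without control replicate 1, 282 without cKO replicate 2, 369 without control replicate 2 and 951 without cKO replicate 3. The higher share was 49.9% with quantile normalization, 51.1% with median-ratio scaling and 54.0% with the correction for length and GC content. Among other immediate early genes 1 met the criteria, against 0 of 34 at a mean of at least 5 TPM, 4 with quantile normalization, 3 with median-ratio scaling, and 1 to 4 when a library was left out, the highest without control replicate 2. The causes were not tested. The median of all genes was -0.07 on the log2 scale as fitted and -0.14 after rescaling without *Amelx* and *Ambn*. Over 15 alternatives, 8 of the 9 genes of the set kept the sign of their difference. The exception was *Atf3*, which kept it in 11 of 14 and was -0.05 after rescaling. The other filters and the replicate block cannot alter the difference of a gene, so they add nothing to these counts. *Fosl2* kept its sign at only -0.0030 with the correction for length and GC content. Under the settings that kept all 6 libraries, the difference ranged from 1.56 to 1.76 for *Fos*, from 0.96 to 1.48 for *Fosb*, from 0.82 to 0.97 for *Junb*, from 0.33 to 0.48 for *Jund* and from 0.74 to 0.89 for *Ier2*. *Dusp4* had an unadjusted p between 0.00219 and 0.0173 and an adjusted p of at least 0.507 in the 14 alternatives in which it was tested.

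The replicate numbers are shared by the groups, but the sources do not say what pairs them. They follow the sample titles. In the names of the deposited columns, replicate 1 keeps its number and no column is numbered 2. Replicates 2 and 3 of each group carry the next higher number there, so control replicate 2 is the control column numbered 3. Across genes, deviations from the group mean correlated at -0.08, 0.29 and 0.40 between the libraries of replicate 1, 2 and 3. Control replicate 1 correlated better with the other replicate numbers than with its own. With the replicate block the counts were 4 genes at an adjusted p below 0.05, 1315 under the criteria and 5 other immediate early genes, with *Dusp1*, *Zfp36* and *Ccn1* higher and *Dusp4* and *Trib1* lower in cKO. Adding the length and GC correction to the block, they were 1, 1110 and 5, with *Socs3* called higher and *Trib1* no longer called. The depth is unknown, and 3 libraries a group limit the precision.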
